A study of Mus musculus with 12 samples.

Results

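The genes encoding 10 cytosolic heat-shock and small heat-shock proteins were followed in the left ventricle of mice. The members were defined by gene name, as the rows of the deposited expression table whose NCBI Gene ID belongs to Hspa1a, Hspa1b, Hspa8, Hsp90aa1, Hsph1, Dnajb1, Hspb1, Hspb6, Hspb7 or Cryab. All 10 were among the 18079 genes of the table, and all 10 passed the filter on low values that left 11664 genes for testing.

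The samples were left ventricles of male C57BL/6 mice (C57BL/6J in the methods of the study), operated on at 8 weeks of age and harvested 4 weeks later, at 12 weeks. The methods of the study instead give a range of ages at surgery that begins at 8 weeks. Operations were aortic banding (AB), a narrowing of the descending aorta that loads the ventricle with pressure, or a sham procedure. Mice received hispidulin, a plant flavone, at 20 mg/kg/day by intraperitoneal injection, or the solvent DMSO, from 1 day before surgery until harvest. Sham mice given DMSO (DMSO+Sham) or hispidulin (Hispidulin+Sham) and banded mice given either (DMSO+AB, Hispidulin+AB) made up 4 groups of 3 mice, so every mouse had an operation and daily injections. Expression was measured by sequencing polyadenylated RNA with single-end reads of 50 bases and is given as FPKM, which scales fragments by transcript length and by the mapped fragments of the library and allows levels to be compared between genes. In whole tissue, fewer cells of a type and less RNA per cell cannot be told apart.

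Heat-shock proteins are molecular chaperones. HSP70 proteins bind and refold unfolded chains in a cycle driven by ATP, J-domain proteins (HSP40) deliver the chains and start the cycle, HSP110 proteins exchange the nucleotide, and HSP90 completes the folding of kinases and receptors. Small heat-shock proteins hold unfolded proteins in a soluble state without using ATP, and several of them are abundant in heart and skeletal muscle, where they associate with the contractile filaments. Stress-inducible members are switched on by the transcription factor HSF1, which binds inverted repeats of the bases GAA in their promoters.

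Promoters of 5 members are shown because the repeat is the known site of heat induction: 4 that held it before the start and Hspb7, which did not, as a contrast. Of the 10 members, 7 had promoter entries in RefSeq, of which Hsph1 is printed at 1 of its starts and Hspb6 and Dnajb1 are described without sequence (10 windows of 250 bases before to 50 bases after a start, GRCm38.p6). Windows were searched for GAANNTTC and TTCNNGAA, the smallest paired forms of the repeat. Each reads the same on both strands, and copies of one may overlap the other. In the 150 bases before the start, 5′ to 3′ on the strand of the gene, capitals mark every match:
Hspa1a, chr17:34972157-34972306, minus strand: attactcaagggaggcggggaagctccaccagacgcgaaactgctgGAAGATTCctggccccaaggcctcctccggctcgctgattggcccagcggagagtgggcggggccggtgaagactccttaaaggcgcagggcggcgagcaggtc
Hspa1b, chr17:34959239-34959388, minus strand: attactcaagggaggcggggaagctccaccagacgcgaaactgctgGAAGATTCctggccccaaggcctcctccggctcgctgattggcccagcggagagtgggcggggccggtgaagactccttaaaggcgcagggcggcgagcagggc
Hspb1, chr5:135887769-135887918, plus strand: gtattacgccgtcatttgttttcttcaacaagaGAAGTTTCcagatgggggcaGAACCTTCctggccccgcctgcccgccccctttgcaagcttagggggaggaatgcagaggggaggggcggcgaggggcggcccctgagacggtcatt
Hsph1, chr5:149636337-149636486, minus strand: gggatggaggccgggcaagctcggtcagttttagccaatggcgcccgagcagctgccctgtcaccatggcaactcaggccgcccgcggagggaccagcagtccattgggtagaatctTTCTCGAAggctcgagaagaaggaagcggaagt
Hspb7, chr4:141420629-141420778, plus strand: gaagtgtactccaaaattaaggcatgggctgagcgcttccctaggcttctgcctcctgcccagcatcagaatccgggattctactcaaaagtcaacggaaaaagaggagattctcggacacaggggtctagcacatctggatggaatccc

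The Hspa1a and Hspa1b sequences were identical at 149 of the 150 bases printed and at 296 of the 300 bases of the window. Both had a match that began 104 bases before the start. Hspb1 had a pair of matches, 117 and 97 bases before the start, and Hsph1 had a match at 33 bases and further matches after the start. Hspb6 had a match in the window of 1 of its starts, at 120 bases, and none in the other, while neither window of Dnajb1 and not the window of Hspb7 held a match. At least 1 of both patterns occurred in 6 of the 10 member windows (5 of the 7 members) and in 15.1% of all 32851 windows of this length. A match describes letters and is no evidence of binding.

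The 4 small heat-shock genes were among the most abundant messages of the sham ventricle. In DMSO+Sham, Cryab (alphaB-crystallin, NCBI Gene 12955) was at 2471 ± 143 FPKM (SD, n = 3), rank 21 of the 11664 genes, and Hspb7 (cvHSP, a heart and muscle form, 29818) was at 1356 ± 117 FPKM, rank 49. Hspa8, the constitutive cytosolic HSP70 (15481), followed at 1145 ± 74.1 FPKM and rank 61. Hspb6 (HSP20, 243912) and Hspb1 (HSP27 in humans, HSP25 in mice, 15507) were at 791.9 ± 187 and 752.9 ± 335 FPKM, which differed by less than their spread. The remaining members were far lower, with Hsp90aa1, the inducible HSP90 alpha (15519), at 101.5 ± 40.8 FPKM. Hspa1a and Hspa1b, the paired genes of inducible HSP70 (193740 and 15511), were at 31.85 ± 45.1 and 20.37 ± 30.2 FPKM. Hsph1, an HSP110 nucleotide exchange factor (15505), was at 21.47 ± 5.71 FPKM, between those of the pair and not separable from them. Dnajb1, an HSP40 partner of HSP70 (81489), was the lowest at 6.26 ± 2.46 FPKM.

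After AB without hispidulin, the small heat-shock genes Hspb6 and Hspb7 rose, and the levels of the other 8 members were higher on average without passing the test. These 2 of 10 members compare with 5.21% of all genes called in either direction and 2.5% called higher, at an adjusted p under 0.05 from limma with Benjamini-Hochberg adjustment over all genes tested. Fold changes are on the scale of log2(FPKM + 1). The median log2 fold change was 0.79 over the 10 members and -0.03 over all genes tested.

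Hspb6, which is phosphorylated by cyclic-nucleotide-dependent kinases, was at 749.79, 996.79 and 629.02 FPKM in the DMSO+Sham mice and at 1603.56, 1564.25 and 2356.89 FPKM in the DMSO+AB mice. Every banded mouse lay above every sham mouse, and DMSO+AB mouse 3 was highest. The log2 fold change was 1.22 (SE 0.19, limma adjusted p = 0.00858), a 2.32-fold rise. Reads of Hspb6 may include those of genes that overlap its locus in GENCODE, namely Gm38670 on the same strand and, since whether counting used strand is not stated, Proser3 and Lin37 on the opposite strand.

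Hspb7 was at 1314.69, 1265.57 and 1488.91 FPKM in DMSO+Sham and at 2226.35, 2015.33 and 2451.67 FPKM in DMSO+AB. The groups did not overlap, and the spread was small: the SD within groups was 0.12 on the log2 scale, lower than in most genes tested (percentile 19.0). Its log2 fold change was 0.72 (SE 0.11, limma adjusted p = 0.00647), or 1.64-fold.

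Cryab, the major small heat-shock protein of heart muscle and a binder of desmin and titin, was at 2632.36, 2418.36 and 2361.16 FPKM in DMSO+Sham and at 3838.63, 2874.38 and 3907.61 FPKM in DMSO+AB. The groups did not overlap, yet the log2 fold change of 0.51 (SE 0.14) did not pass the adjustment (limma adjusted p = 0.0624). Cryab overlaps Hspb2 on the opposite strand. Hspb2, itself a small heat-shock gene, ranged from 56.2 to 77.59 FPKM over the 12 mice, far below Cryab, and had a log2 fold change of 0.12 (limma adjusted p = 0.574).

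Hspb1, which binds actin and is induced by heat, was at 737.21, 425.81 and 1095.53 FPKM in DMSO+Sham and at 1759.77, 1254.86 and 1468.34 FPKM in DMSO+AB. The groups did not overlap, with a log2 fold change of 1.08 (SE 0.36, limma adjusted p = 0.109). Hspb1 was thus about as far apart in its means as Hspb6 and had a larger spread, with an SD within groups of 0.52 against 0.27.

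Of the 10 members, 5 had every DMSO+AB mouse above every DMSO+Sham mouse (Hspb1, Hspb6, Hspb7, Cryab and Hspa8), against 7.18% of all genes. For Hspb6 and Hspb7 the call was lost when the fit held only the 6 mice compared, with limma adjusted p = 0.0867 and 0.081 at the same fold changes. Without the 3 libraries richest in the atrial gene Myl7, an alternative chosen after seeing the data, Hspb6 changed by 1.32 (limma adjusted p = 0.0631) and Hspb7 by 0.79 (limma adjusted p = 0.0332).

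**Figure D1:**
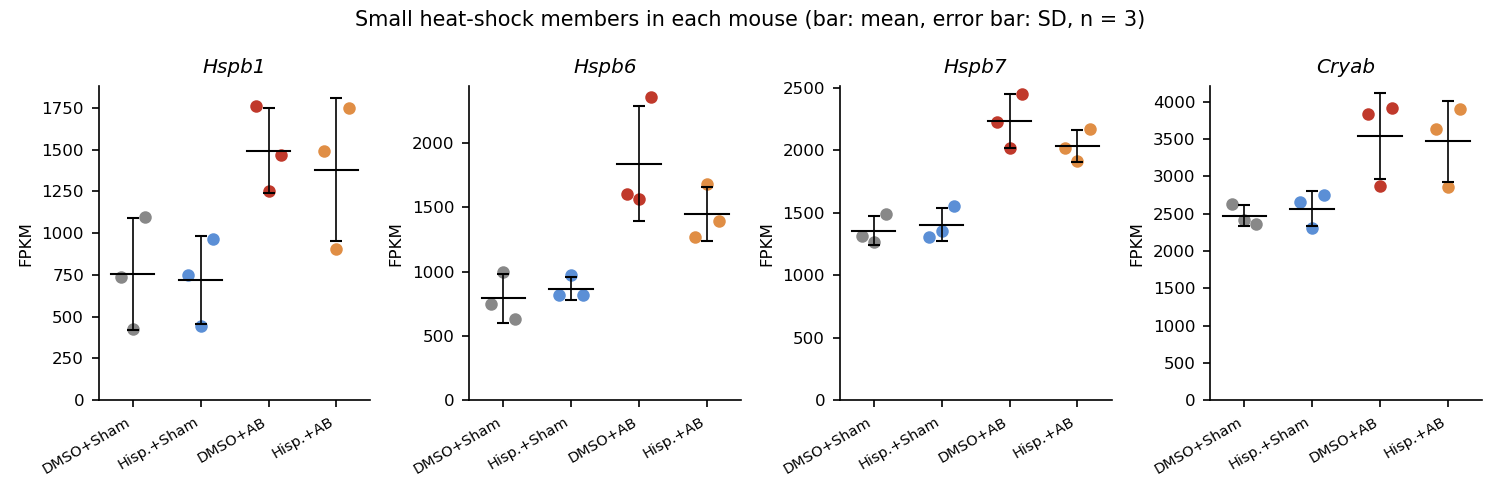
FPKM of Hspb1, Hspb6, Hspb7 and Cryab (vertical axes, starting at 0) in the 4 groups, with a point for each mouse in the order 1 to 3, the mean as a bar and the SD as the error bar (n = 3). All banded mice lie above all sham mice for Hspb6, Hspb7 and Cryab, and for Hspb1 the lowest banded mouse (906.6 FPKM, Hispidulin+AB 2) lies below the highest sham mouse (1095.53 FPKM, DMSO+Sham 3).

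The HSP70, HSP90, HSP110 and HSP40 members had higher means after AB, and none of these 6 passed the test in DMSO+AB against DMSO+Sham. Hspa1a was at 9.49, 2.3 and 83.75 FPKM in DMSO+Sham and at 321.36, 47.88 and 38.02 FPKM in DMSO+AB. Sham mouse 3 was above banded mice 2 and 3, so the groups overlapped. The log2 fold change was 2.57 (SE 1.22, limma adjusted p = 0.261), and leaving out single mice moved it from 1.51 (without DMSO+Sham 2) to 3.85 (without DMSO+Sham 3), with 1.61 without DMSO+AB 1.

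Hspa1b was at 3.76, 2.12 and 55.22 FPKM in DMSO+Sham and at 261.04, 39.41 and 24.76 FPKM in DMSO+AB. It ordered the mice of both groups as Hspa1a did. Its log2 fold change was 2.78 (SE 1.20, limma adjusted p = 0.215). In GENCODE transcripts, 60.35% of the 50-base windows of Hspa1a and 62.31% of those of Hspa1b also occur in the transcript of another gene, almost all in each other, so the split of reads between them is uncertain. Summed into 1 value, the pair had a log2 fold change of 2.75 (SE 1.25, limma adjusted p = 0.24).

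Dnajb1 was at 4.65, 9.09 and 5.04 FPKM in DMSO+Sham and at 29.98, 8.49 and 6.02 FPKM in DMSO+AB. Banded mice 2 and 3 lay within the sham range (log2 fold change 0.86, SE 0.59, limma adjusted p = 0.449), and the value was 0.22 without DMSO+AB 1 and 1.29 without DMSO+AB 3. Hsp90aa1 was at 105.11, 59.07 and 140.34 FPKM in DMSO+Sham and at 216.96, 190.61 and 69.76 FPKM in DMSO+AB. Its groups overlapped (0.57, SE 0.46, limma adjusted p = 0.527), and the value ranged from 0.23 without DMSO+Sham 2 to 1.08 without DMSO+AB 3.

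Hsph1 was at 27.85, 16.84 and 19.72 FPKM in DMSO+Sham and at 32.82, 31.32 and 27.8 FPKM in DMSO+AB, an overlap of a single pair of mice. Its log2 fold change was 0.52 (SE 0.23, limma adjusted p = 0.23). Hspa8 was at 1060.28, 1195.06 and 1181.07 FPKM in DMSO+Sham and at 1875.96, 1237.42 and 1251.17 FPKM in DMSO+AB. The groups were just apart, with mouse 1 well above the rest (0.32, SE 0.18, limma adjusted p = 0.35). Windows shared with other genes made up 73.22% of Hspa8, 58.51% of Hsp90aa1 and 51.65% of Hspb1, mostly with pseudogenes, so these levels depend on how shared reads were assigned. Hsph1, Hspb6 and Cryab shared 0% and Dnajb1 and Hspb7 shared 0.41%.

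**Figure D2:**
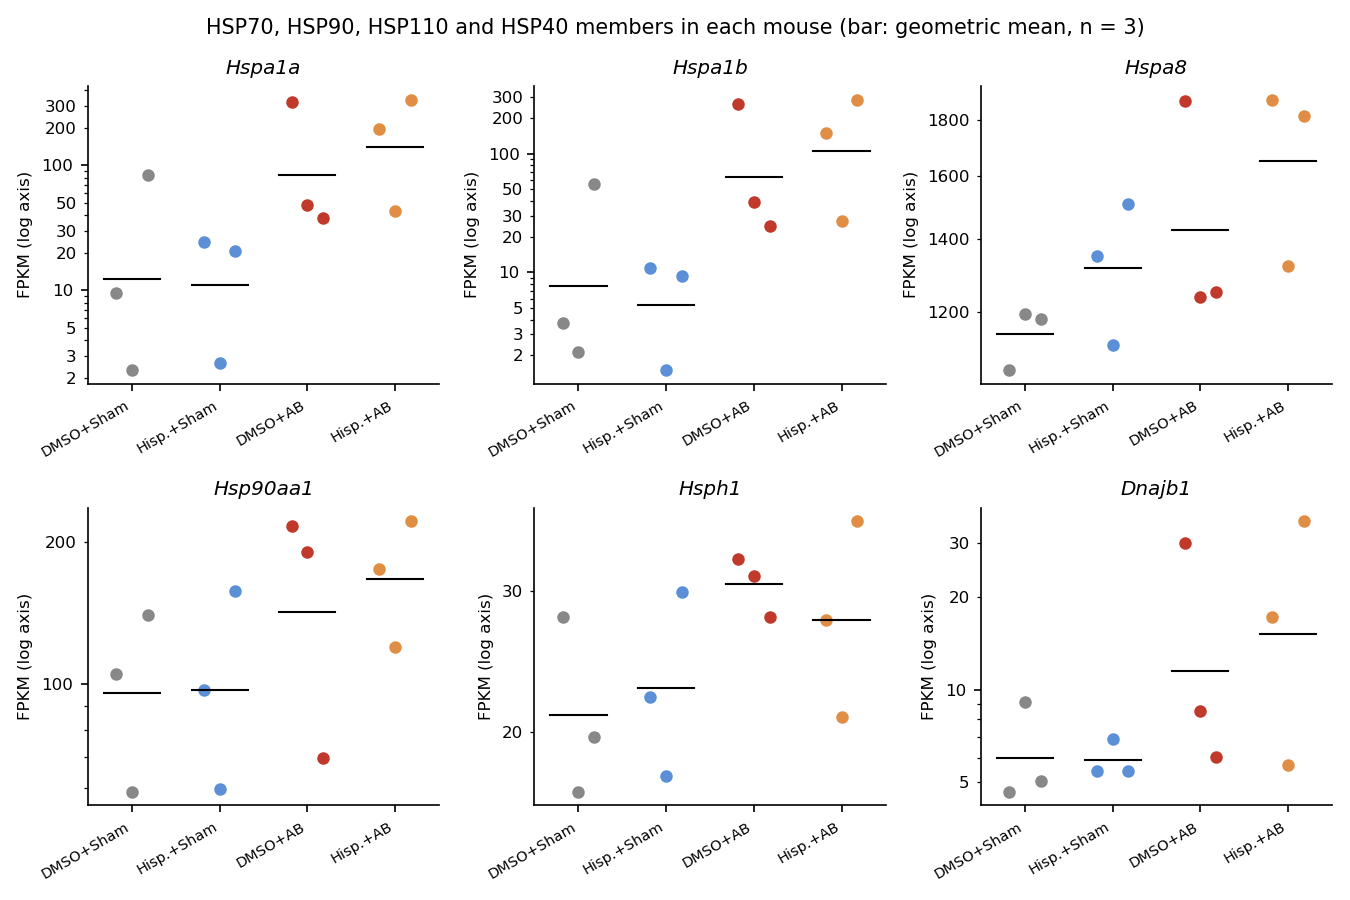
FPKM of Hspa1a, Hspa1b, Hspa8, Hsp90aa1, Hsph1 and Dnajb1 on logarithmic axes, with a point for each mouse in the order 1 to 3 and the geometric mean as a bar (n = 3). For Hspa1a, Hspa1b, Hspa8 and Dnajb1, DMSO+AB mouse 1 and Hispidulin+AB mice 1 and 3 stand above the other 9 mice, and Hspa1a spans 2.3 to 336.51 FPKM.

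In mice given hispidulin, the 10 members had higher means after AB than after sham surgery, and 0 of 10 passed, as did 0 of all genes. At an unadjusted p under 0.05, 6 of the 10 members and 7.26% of all genes passed. Every Hispidulin+AB mouse was above every Hispidulin+Sham mouse for Hspa1a, Hspa1b, Hspb6, Hspb7 and Cryab, against 9.14% of all genes higher in this way. Hspb7 was at 1308.02, 1352.12 and 1552.88 FPKM in Hispidulin+Sham and at 2013.68, 1911.85 and 2165.43 FPKM in Hispidulin+AB. The change was 0.53 on the log2 scale (SE 0.11, limma adjusted p = 0.183). With the replicate number as a block, Hspb7 was the 1 member called (limma adjusted p = 0.0356), among 17 genes. Replicate numbers belong to different animals, so this block rests on no stated pairing.

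Hspb6 was at 815, 972.77 and 816.46 FPKM in Hispidulin+Sham and at 1271.64, 1679.79 and 1393.38 FPKM in Hispidulin+AB, with a log2 fold change of 0.73 (SE 0.19, limma adjusted p = 0.428). Its adjusted p was 0.0467 in a fit of only the 6 mice compared and 0.0313 with library weights. Cryab was at 2648.29, 2302.04 and 2752.48 FPKM in Hispidulin+Sham and at 3637.63, 2858.83 and 3904.03 FPKM in Hispidulin+AB (0.42, SE 0.14, limma adjusted p = 0.524). Hspb1 was at 750.2, 443 and 965.52 FPKM and at 1489.49, 906.6 and 1746.56 FPKM in the same groups, an overlap made by mouse 2 after AB and mouse 3 after sham surgery (0.96, SE 0.36, limma adjusted p = 0.608).

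Hspa1a was at 24.48, 2.64 and 20.6 FPKM in Hispidulin+Sham and at 193.87, 43.52 and 336.51 FPKM in Hispidulin+AB. The log2 fold change was 3.50 (SE 1.22, limma adjusted p = 0.544). Hspa1b was at 10.96, 1.5 and 9.26 FPKM and at 147.91, 26.83 and 284.98 FPKM (3.97, SE 1.20, limma adjusted p = 0.485). The log2 fold changes of the pair exceeded those in DMSO mice by 0.93 (SE 1.72) and 1.19 (SE 1.70), limma adjusted p = 1 for both. The log2 fold changes of the remaining 4 members lay between 0.27 for Hsph1 and 1.25 for Dnajb1. Leaving out single mice gave 0.077 to 0.47 for Hsph1 and 0.68 to 1.90 for Dnajb1. It gave 0.21 to 0.49 for Hspa8 and 0.43 to 1.12 for Hsp90aa1. Dnajb1 was at 5.44, 6.92 and 5.44 FPKM after sham surgery and at 17.28, 5.7 and 35.4 FPKM after AB.

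Over both treatments together, 6 banded mice against 6 sham mice, all 4 small heat-shock genes and Hspa1b rose. These 5 of 10 members compare with 7.39% of all genes called and 3.52% called higher. Hspb7 changed by 0.63 (SE 0.07, limma adjusted p = 0.00189), Hspb6 by 0.97 (SE 0.13, limma adjusted p = 0.00292), Cryab by 0.47 (SE 0.10, limma adjusted p = 0.0185) and Hspb1 by 1.02 (SE 0.25, limma adjusted p = 0.0318). All 6 banded mice were above all 6 sham mice for Hspb6, Hspb7 and Cryab, against 2.15% of all genes.

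Hspa1b changed by 3.38 (SE 0.85, limma adjusted p = 0.033), a 10.4-fold rise with an interval of 1.53 to 5.23 on the log2 scale (95%), and Hspa1a by 3.04 (SE 0.86, limma adjusted p = 0.0531). The pair summed changed by 3.27 (SE 0.88, limma adjusted p = 0.044). Not called were Dnajb1 (1.06, limma adjusted p = 0.15), Hspa8 (0.32, limma adjusted p = 0.151), Hsph1 (0.40, limma adjusted p = 0.169) and Hsp90aa1 (0.67, limma adjusted p = 0.243). The 4 small heat-shock genes together made up 0.986 ± 0.0599% of the FPKM of a DMSO+Sham mouse and 1.01 ± 0.0911% in Hispidulin+Sham. After AB the shares were 1.63 ± 0.24% with DMSO and 1.51 ± 0.204% with hispidulin (SD, n = 3). Hspb6 and Hspb7 passed in all 23 alternatives run for this comparison, Cryab in 17, Hspb1 in 11 and Hspa1b in 10.

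Leaving out single mice changed the calls of 4 other members, Hspa1a, Hspa1b, Hspb1 and Cryab, while Hspa8, Hsp90aa1, Hsph1 and Dnajb1 were not called in any of these fits. Without DMSO+Sham 3, Hspa1a passed (limma adjusted p = 0.0116), as it did without Hispidulin+AB 2 (0.0477). Hspa1b kept its call without DMSO+Sham 3, DMSO+AB 3 or Hispidulin+AB 2 and lost it without any other mouse, with adjusted p from 0.0509 to 0.0872. Hspb1 kept its call without DMSO+Sham 2, DMSO+Sham 3, Hispidulin+Sham 3 or Hispidulin+AB 2, and its adjusted p was otherwise 0.052 to 0.0834. Cryab lost its call without Hispidulin+Sham 2, Hispidulin+AB 1 or Hispidulin+AB 3, with adjusted p from 0.0512 to 0.0555.

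Whether hispidulin altered the members after AB was addressed by Hispidulin+AB against DMSO+AB. None of the 10 passed, nor did any gene, and the adjusted p from limma was between 0.996 and 0.998 for every member. At an unadjusted p under 0.05, 0 members and 3.1% of all genes passed. Hspb6 was at 1448 ± 210 FPKM with hispidulin and 1842 ± 447 FPKM with DMSO, a log2 fold change of -0.33 with a 95% interval from -0.75 to 0.09. Leaving out single mice moved this value between -0.44 and -0.14. The groups overlapped, with DMSO+AB mouse 3 highest.

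The width of the 95% intervals differed widely between members. For Hspb7 the interval was -0.36 to 0.10, for Cryab -0.34 to 0.28 and for Hspa8 -0.18 to 0.61. For Hspa1a it was -1.90 to 3.40 and for Hspa1b -1.91 to 3.32, so that differences of several fold in either direction were not detectable at this spread. Hspb1 (-0.15, interval -0.93 to 0.63) and Dnajb1 (0.37, interval -0.91 to 1.65) lay between these.

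In sham mice, hispidulin against DMSO gave 0 of 10 members and 0 genes called, with limma adjusted p = 1 for each member. Unadjusted, 0 members and 2.46% of all genes had a p under 0.05. Hspb7 differed by 0.05 (95% interval -0.18 to 0.28), Cryab by 0.05 (-0.26 to 0.36) and Hspb6 by 0.15 (-0.26 to 0.57). Hspa1a differed by -0.18 with an interval from -2.84 to 2.47. The test of whether the response to AB differed between hispidulin and DMSO found 0 members and 0 genes, against 2.48% of genes at an unadjusted p under 0.05. Hspb6 had the smallest unadjusted p of the members in it, 0.0983 (difference of log2 fold changes -0.48, SE 0.27, limma adjusted p = 1). Over both operations, hispidulin against DMSO also gave 0 of 10 members and 0 genes, with 2.97% of genes and 0 members at an unadjusted p under 0.05.

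**Figure D3:**
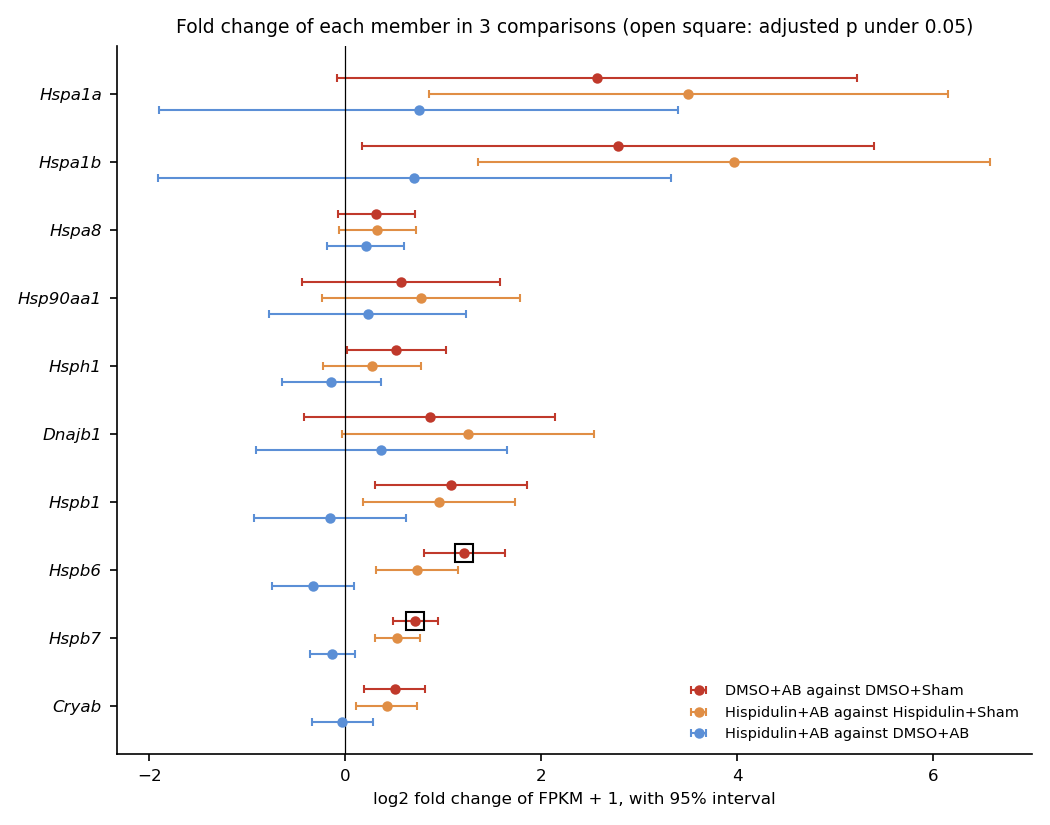
Log2 fold change of FPKM + 1 (horizontal axis) with its 95% interval for each of the 10 members for AB without hispidulin, for AB with hispidulin and for hispidulin against DMSO after AB, which share control mice, from limma on all 12 mice. Open squares mark an adjusted p under 0.05, reached by Hspb6 (1.22) and Hspb7 (0.72) without hispidulin, and the intervals of Hspa1a and Hspa1b are several times wider than those of Hspb7 and Cryab.

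The members fell apart in how much mice of the same group differed. The SD within groups, on the log2 scale, was 1.81 for Hspa1a and 1.79 for Hspa1b (percentile 100 of all genes tested), 0.87 for Dnajb1 (99.3), 0.68 for Hsp90aa1 (98.4) and 0.52 for Hspb1 (96.7). It was 0.33 for Hsph1 (88.1), 0.27 for Hspb6 (79.2), 0.25 for Hspa8 (75.7), 0.19 for Cryab (54.8) and 0.12 for Hspb7 (19.0), around a median of 0.18 over all genes. From the lowest to the highest of the 12 mice, Hspa1b spanned 190-fold, Hspa1a 146-fold and Dnajb1 7.61-fold, against 1.94-fold for Hspb7 and 1.7-fold for Cryab.

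The same 3 banded mice, DMSO+AB 1, Hispidulin+AB 1 and Hispidulin+AB 3, were above all 9 other mice for Hspa1a, Hspa1b, Hspa8, Dnajb1 and Hspb1. The share of all genes ordered in this way was not computed. Since these mice were singled out after the values were seen, the count only describes them. Hspa1a was at 193.87 to 336.51 FPKM in these 3 and at most 83.75 FPKM in the others, and Dnajb1 at 17.28 to 35.4 FPKM against at most 9.09 FPKM. Hspa8 was at 1814.44 to 1880.2 FPKM against at most 1507.58 FPKM. For Cryab the 3 mice ranked 2, 3 and 4 of the 12, behind DMSO+AB 3 by a narrow margin (3907.61 against 3904.03 FPKM), and for Hspb7 they ranked 2, 3 and 5. For Hspb6 they ranked 3, 5 and 6. DMSO+AB 3, with the lowest Hspa1a of the banded mice (38.02 FPKM), had the highest Hspb6, Hspb7 and Cryab of all. Of the 7 members with promoter sequence, Hspa1a, Hspa1b and Hspb1 had a match and were highest in these 3 mice, and Hspb7 had none and was not. Dnajb1 was highest in them with no match, and Hspb6, with a match at 1 of its starts, and Hsph1, with matches at both, were not. Nothing is drawn from this about the factor.

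Of 11 listed immediate early genes, which are transcribed soon after a stimulus, 3 (Fos, Egr1 and Atf3) were higher in each of the same 3 mice than in any other, and 8 were not. The share of all genes ordered in this way was not computed. Fos counts here by construction, since the mice are set apart as the 3 highest in Fos. Fos was at 7.67 to 11.85 FPKM in them and at most 2.24 FPKM in the other 9, Egr1 at 21.13 to 24.55 against at most 7.59 FPKM, and the stress-induced factor Atf3 at 67.92 to 115.85 against at most 20.57 FPKM. The list of 11 immediate early genes summed to 152.8 to 254.7 FPKM in DMSO+Sham, 166 to 183.4 in Hispidulin+Sham, 213.9 to 403.4 in DMSO+AB and 196.6 to 338.8 in Hispidulin+AB. Of its 10 tested genes, 1, Jun, was called higher in DMSO+AB against DMSO+Sham (0.62, limma adjusted p = 0.0376), against 2.5% of all genes. Over both treatments 2, Jun and Atf3, were called higher (0.41 and 2.20, limma adjusted p = 0.0402 and 0.0376), against 3.52% of all genes. Of the others, Nr4a1, Dusp1 and Zfp36 were highest in DMSO+Sham 2 (27.4, 68.87 and 44.11 FPKM) and Ier3 in DMSO+AB 2 (77.75 FPKM). The part of these genes in the values of the inducible members was not tested.

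Without those 3 mice, an alternative chosen after seeing the data that leaves 1 mouse in Hispidulin+AB and 2 in DMSO+AB, Hspb6 changed by 1.13 and Hspb7 by 0.58 over both treatments. The lone mouse is assumed to vary like those of the other groups. For the 5 members that were highest in the mice left out, a smaller change follows from the choice of mice. The same holds for Cryab and Hspb7, which also ranked high in those mice. Within groups, Hspb6 ran opposite to Hspa1a (Pearson r = -0.796), so its larger change depends on that choice too. This fit is therefore no support for any member. Nppa, which encodes atrial natriuretic peptide, was at 680.18, 6042.98 and 5738.26 FPKM in DMSO+AB, and Nppb, which encodes its B-type relative, at 1394.21, 1773.97 and 1451.4 FPKM.

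**Figure D4:**
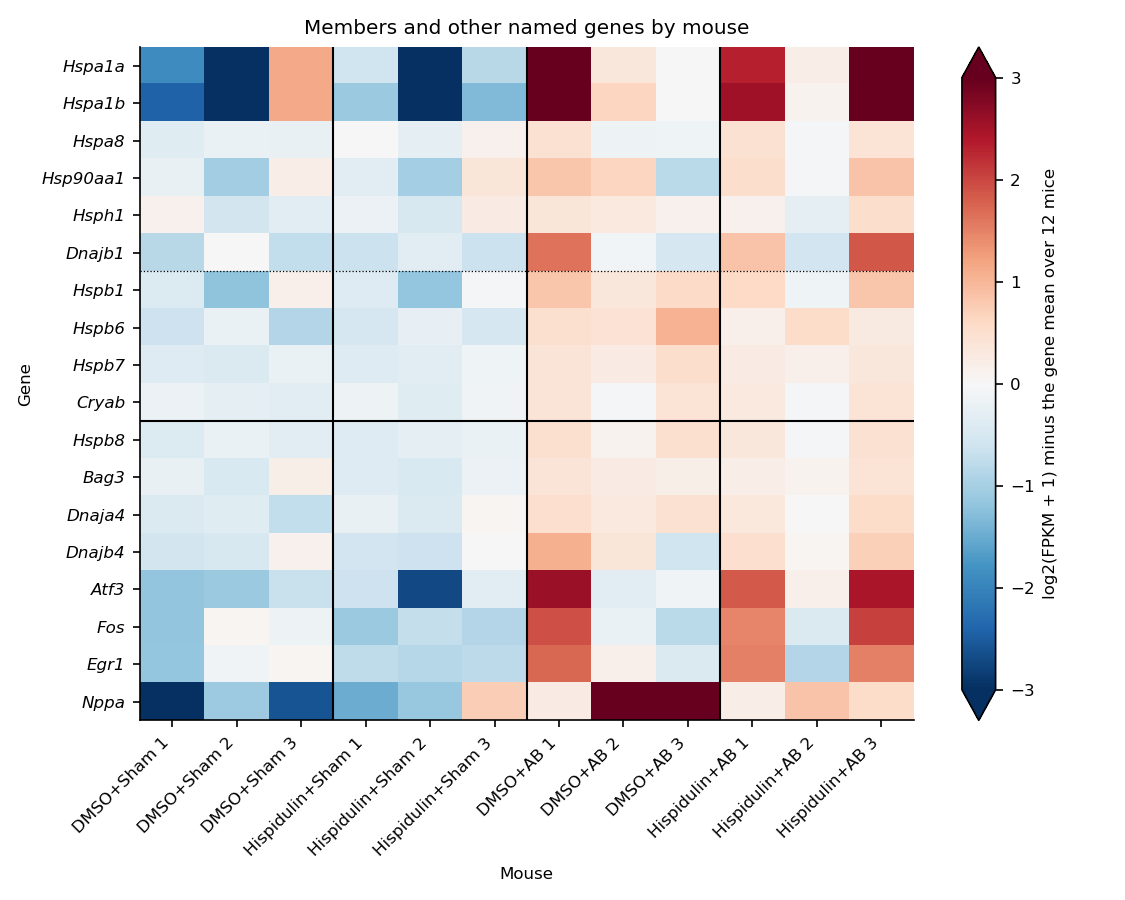
Log2(FPKM + 1) minus the mean of each gene over the 12 mice (colour, limited to -3 to 3) for the 10 members, above the solid line, and for Hspb8, Bag3, Dnaja4, Dnajb4, Atf3, Fos, Egr1 and Nppa, with groups parted by vertical lines. Hspa1a, Hspa1b, Dnajb1, Atf3, Fos and Egr1 are high in DMSO+AB 1, Hispidulin+AB 1 and Hispidulin+AB 3, while Nppa is highest in DMSO+AB 2 and 3.

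The 8 lists of other chaperone genes had 4 of 56 tested genes called in DMSO+AB against DMSO+Sham (7.14%, against 5.21% of all genes) and 5 of 56 over both treatments (8.93%, against 7.39%), shares near those of all genes. All of these were higher after AB, where 2.5% and 3.52% of all genes were called higher. Hspb8, a small heat-shock protein that works with the co-chaperone BAG3 in selective autophagy, was at 295.21, 343.68 and 316.65 FPKM in DMSO+Sham and at 552.47, 424.82 and 555.24 FPKM in DMSO+AB. The groups did not overlap (log2 fold change 0.67, SE 0.14, limma adjusted p = 0.0232), and over both treatments it changed by 0.60 (limma adjusted p = 0.0062). Hspb8 was the 1 gene called of 3 tested in the list of other small heat-shock proteins. Bag3 was called over both treatments (0.51, limma adjusted p = 0.0167) and not in DMSO mice alone (0.44, limma adjusted p = 0.124). Bag2, which inhibits the ubiquitin ligase CHIP, was called in both comparisons (0.57 and 0.39, limma adjusted p = 0.0111 and 0.00846), and in the list of BAG proteins and CHIP 1 and 2 of 7 genes were called.

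Dnaja4, a J-domain protein, was at 58.43, 60.91 and 46.7 FPKM in DMSO+Sham and at 113.59, 97.21 and 109.47 FPKM in DMSO+AB, which did not overlap (0.94, limma adjusted p = 0.0117). It was the 1 gene called of 9 other cytosolic DnaJ genes, there and over both treatments (0.72, limma adjusted p = 0.00549). Hspbp1, a nucleotide exchange factor that restrains HSP70, was the 1 gene called of 5 heat-shock factors and modulators in DMSO mice (0.53, limma adjusted p = 0.0477), and 0 of 5 were called over both treatments. Hsf1 itself was level, at 23.58 ± 3.89 FPKM in DMSO+Sham and 22.92 ± 2.95 FPKM in DMSO+AB (-0.04, limma adjusted p = 0.904). Hspa1l, which lies next to the Hspa1a and Hspa1b pair and shares read windows with both, was the 1 gene of 7 other cytosolic HSP70 and HSP110 genes called over both treatments (0.55, limma adjusted p = 0.0153), and 0 of 7 were called in DMSO mice.

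Other chaperone systems gave no call. Of HSP90 beta and the HSP90 co-chaperones, 0 of 13 were called in both comparisons, with Hsp90ab1 at 0.01 (limma adjusted p = 0.951) and Stip1, which links HSP70 to HSP90, at 0.20 (limma adjusted p = 0.44) in DMSO mice. Of the cytosolic chaperonin CCT, which folds actin and tubulin, 0 of 8 subunits were called, and of the mitochondrial chaperones 0 of 4 (median log2 fold change -0.23 in DMSO mice and -0.16 over both treatments). The medians over all genes were -0.03 in both comparisons.

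**Figure D5:**
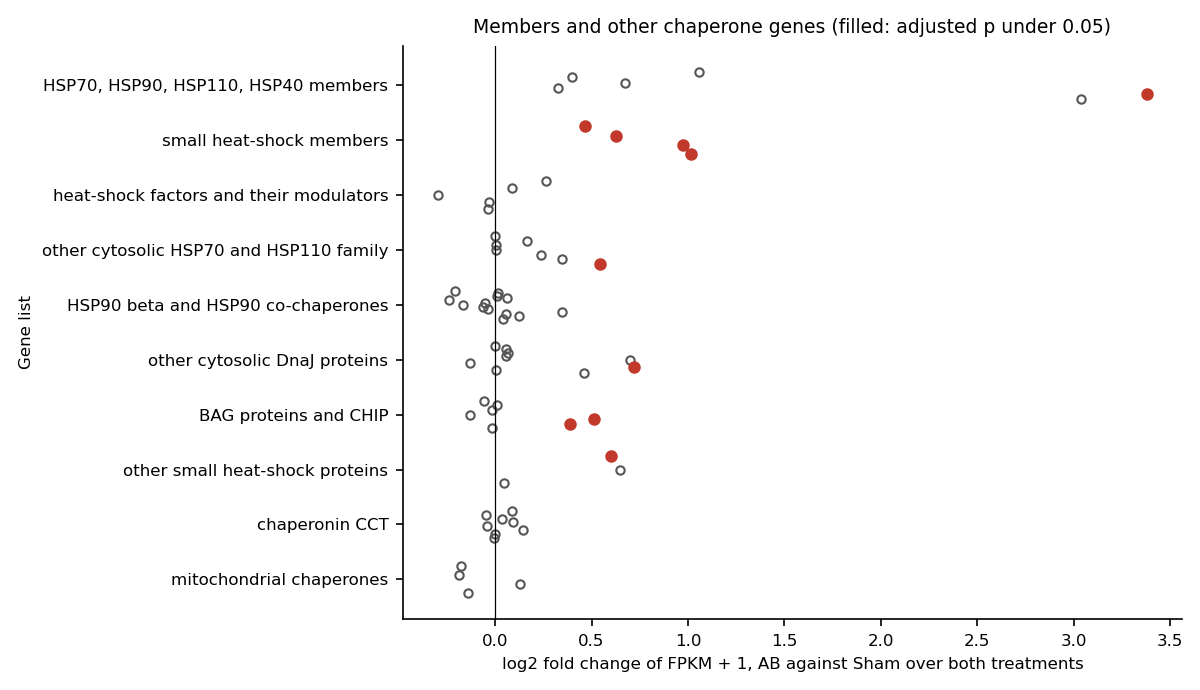
Log2 fold change of FPKM + 1 for AB against Sham over both treatments (horizontal axis, 6 mice against 6), with a point for each tested gene of the members and of 8 other lists of chaperone genes. Filled points have a limma adjusted p under 0.05 and are found for 5 members and for Hspa1l, Dnaja4, Bag2, Bag3 and Hspb8, while the chaperonin CCT, HSP90 co-chaperone and mitochondrial lists have none.

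The labels of the tissue and operation were checked against marker genes. The 8 ventricular cardiomyocyte genes summed to between 34429 and 44072 FPKM in every mouse, and the natriuretic peptide gene Nppb (3.08, limma adjusted p = 0.0036) and the actin gene Acta1 (4.12, limma adjusted p = 0.0032) were higher in DMSO+AB. Atrial genes (3 of 4 listed were in the table) summed to 2.53 to 39.99 FPKM in 9 mice and were higher in Hispidulin+Sham 3 (773.9), DMSO+AB 2 (172) and Hispidulin+AB 3 (91). Of 7 fibroblast markers, 3 were called higher in DMSO mice (Col1a1, Col1a2 and Postn, against 2.5% of all genes), and the list summed to 330.9 to 419.2 FPKM in DMSO+Sham and 381.6 to 938.7 FPKM in DMSO+AB. Of the ventricular genes, Ryr2 fell by 0.59 on the log2 scale (limma adjusted p = 0.0364). In the same comparison 0 genes of the endothelial, smooth muscle, macrophage, neutrophil, red cell and adipocyte lists were called, and of the fast skeletal muscle list Tnni2 fell by 0.89 on the log2 scale (limma adjusted p = 0.0269). Over both treatments, 4 of 7 fibroblast genes (Col1a1, Col1a2, Col3a1 and Postn), the smooth muscle gene Tagln (1 of 5; 0.49, limma adjusted p = 0.043) and the ventricular gene Actn2 were called higher. The ventricular gene Ryr2 and the fast skeletal muscle gene Tnni2 were called lower, against 7.39% of all genes called in either direction, and 0 genes of the atrial, endothelial, macrophage, neutrophil, red cell and adipocyte lists were called. DMSO+Sham 3, the sham mouse with the highest Hspa1a, Hspa1b and Hspb1, also had the highest neutrophil sum (54.36 FPKM) and macrophage sum (162.5 FPKM) of the 12. The part of these other cells in the members' values was not tested.

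No sequencing batch or date is given. The animal numbers in the column names begin with 52 for 5 mice and 67 for 6, with a single DMSO+Sham mouse numbered apart, and whether they mark cohorts is not stated. Within the numbers that begin with 52, 1 DMSO+AB mouse exceeded 1 DMSO+Sham mouse by 1.24 for Hspb6, 0.95 for Hspb7, 0.69 for Cryab and 3.05 for Hspa1b, on the log2 scale, while Dnajb1 differed by -0.52. Within those that begin with 67, 2 DMSO+AB mice exceeded 1 DMSO+Sham mouse by 1.33, 0.51, 0.49 and 0.87, and for Dnajb1 by 1.51, opposite in sign. The other 5 members were higher after AB in both series with DMSO. With hispidulin, all 10 members were higher after AB within 52 (1 mouse against 2), and within 67 (2 against 1) 8 were higher, while Hsp90aa1 differed by -0.12 and Hsph1 by -0.31. Between Hispidulin+AB and DMSO+AB the differences of Hspb6 were -0.76 (1 mouse against 1) and -0.12 (2 against 2), and those of Hspa1b were 3.47 and -0.68, opposite in sign. With the number series as a covariate, the rises over both treatments of Hspb6 (1.04, limma adjusted p = 0.00479), Hspb7 (0.61, limma adjusted p = 0.0111) and Cryab (0.51, limma adjusted p = 0.04) passed. Those of Hspa1b (limma adjusted p = 0.11) and Hspb1 (limma adjusted p = 0.0879) did not.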

How the data were processed

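RNA of 12 left ventricles was sequenced on a BGISEQ-500. The submitters' processing notes name HISAT2 2.0.4, Bowtie2 2.2.5, RSEM 1.2.12 and DESeq2 1.4.5 without their roles, and the genome build is not given in the sources used here. The authors deposited FPKM per gene and library, rounded to 2 decimals. Library FPKM summed to 535235 to 567027. Whole reads could not be recovered from the low values, so depth is unknown and no counting error is given.

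NCBI Gene IDs were matched to symbols for 17947 of 18079 genes. Genes with FPKM of at least 1 in at least 3 libraries (11664) were tested on log2(FPKM + 1) with limma 3.58.1 (R 4.3.3, trend, all 12 libraries, 8 residual degrees of freedom, two-sided, Benjamini-Hochberg over all genes, threshold 0.05). In data simulated for DMSO+AB against DMSO+Sham (11664 genes, 200 changed), 85% of log2 changes of 1 and 98% of 2 were recovered, and 2.66% of calls were false. The simulated noise was independent between genes and libraries, without differences shared by a whole library, so these rates need not hold for the real data. They are pooled over genes and need not apply to members of large spread such as Hspa1a and Hspa1b. Each library carries its own animal number, and p-values measure the spread between these mice. Gene lists were chosen by function, and the genes named by rule are all members, the called genes of the lists, Hsf1, Hsp90ab1, Bag3, Stip1, Hspb2 and Hspb8, and the 5 genes of highest Pearson correlation with each set of members. Fos, Egr1, Nr4a1, Dusp1, Zfp36, Ier3, Dnajb4 and Myl7 were named after their values were seen. The members and lists were chosen with earlier results of these data known. Shared 50-base windows and overlaps were read from GENCODE vM21 transcripts, which need not be the authors' annotation, and promoters from RefSeq (GRCm38.p6). Mice of the same replicate number had deviations that correlated over 0.1 in every pair for Hispidulin+AB against Hispidulin+Sham (0.15, 0.20 and 0.23). The same held for Hispidulin+Sham against DMSO+Sham (0.13, 0.33 and 0.23). These are different animals, so such correlations do not establish a pairing. Alternatives covered the value added, filters, scaling, weights, covariates and libraries left out.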

Additional observations from a re-analysis of the deposited data

How the results depend on the processing

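Hspb6 and Hspb7 kept their direction and their call in all 23 alternatives for AB over both treatments. In DMSO+AB against DMSO+Sham they passed in 22 and 23 of 24. Both tallies include the alternatives without the libraries highest in Myl7 or Fos, which were chosen after seeing the data. Every member kept a higher mean after AB in every alternative in these comparisons. Depth is unknown, so no limit by depth can be given. The cause of the changes below was not tested.

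Members called in AB against Sham over both treatments (5) became 2 with no filter on low FPKM, 8 with library weights, 3 with the animal number series as covariate, and 2 without the 3 libraries highest in Myl7 or in Fos. The libraries highest in Fos are also those highest in Hspa1a, Hspa1b, Hspa8, Dnajb1 and Hspb1, so the smaller changes of these 5 without them, and of Cryab, follow from the choice. The values of Hspb6 and Hspb7 in that fit depend on the same choice. In DMSO+AB against DMSO+Sham (2) they became 0 with only the libraries compared, 4 with the replicate block (Hspb1 and Cryab too) and 1 without the 3 libraries highest in Myl7. In Hispidulin+AB against Hispidulin+Sham (0) they became 4 with library weights, 1 with only the libraries compared and 1 with the replicate block. Leaving out each replicate gave 2 to 6, 2 to 3 and 0 to 0 in the same order, and 0 in the comparisons of hispidulin with DMSO and the interaction. The replicate block changed the call of Hspa1a over both treatments (adjusted p = 0.017) and no call of a member in the comparisons of hispidulin with DMSO. The numbers did not pair the mice in DMSO+AB against DMSO+Sham or Hispidulin+AB against DMSO+AB.

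Genes called in DMSO+AB against DMSO+Sham (608) became 358 with no filter, 1423 with weights, 11 with only the libraries compared, 142 with the series covariate and 20 without the libraries highest in Myl7. Leaving out a replicate gave 91 (without DMSO+Sham 1) to 1050 (without DMSO+Sham 2), with 104 without DMSO+AB 2, 190 without DMSO+AB 3, 953 without DMSO+AB 1, and 364, 390 and 396 without Hispidulin+AB 1, Hispidulin+AB 3 and Hispidulin+Sham 1. Over both treatments (862) they became 2535 with weights, 547 with the covariate, 73 and 253 without the libraries highest in Myl7 and Fos, and 373 to 1210 leaving out a replicate (lowest without Hispidulin+AB 3). For Hispidulin+AB against Hispidulin+Sham (0) they became 2 with no filter, 2 with median-of-ratios scaling, 3 with quantile normalization, 209 with weights, 51 with only the libraries compared, 17 with the replicate block, 1 without the libraries highest in Fos and 0 to 10 leaving out a replicate. For Hispidulin+AB against DMSO+AB (0) they became 2 with no filter, 1 without the libraries highest in Fos and 0 to 20 leaving out a replicate. For hispidulin over both operations (0) they became 3 with no filter and 0 to 2 leaving out a replicate, and for the interaction 0 to 3.

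The log2 fold changes that turned sign all missed the threshold. With quantile normalization these were Dnajb1 (0.0027) and Hspb7 (-0.0023) in Hispidulin+Sham against DMSO+Sham, Hsph1 (0.018) in hispidulin over both operations. With library weights these were Cryab (0.077) in Hispidulin+AB against DMSO+AB, Hsp90aa1 (-0.23), Hsph1 (-0.25), Dnajb1 (0.22) and Cryab (-0.045) in Hispidulin+Sham against DMSO+Sham, Hsph1 (0.076), Hspb1 (0.14) and Cryab (0.12) in the interaction, Hsp90aa1 (-0.11) in hispidulin over both operations. With the number series as covariate these were Hspb1 (0.056) in Hispidulin+Sham against DMSO+Sham, Hspa1b (-0.047) and Hsph1 (0.088) in hispidulin over both operations. Without the 3 libraries highest in Myl7 these were Hspa1a (-0.27), Hspa1b (-0.35) and Dnajb1 (-0.41) in Hispidulin+AB against DMSO+AB, Hsp90aa1 (-0.32), Hsph1 (-0.086), Dnajb1 (0.027) and Hspb7 (-0.025) in Hispidulin+Sham against DMSO+Sham, Hspa8 (-0.061) and Dnajb1 (-0.44) in the interaction, Hspa1a (-0.42), Hspa1b (-0.57), Hsp90aa1 (-0.043), Dnajb1 (-0.19) and Cryab (-0.13) in hispidulin over both operations. Without the 3 libraries highest in Fos these were Hsph1 (-0.12) and Dnajb1 (-0.042) in Hispidulin+AB against Hispidulin+Sham, Hspa1b (-0.21) and Dnajb1 (-0.28) in Hispidulin+AB against DMSO+AB, Hspa8 (-0.11) and Dnajb1 (-0.26) in the interaction, Hspa1a (-0.078), Hspa1b (-0.35), Dnajb1 (-0.15) and Cryab (-0.088) in hispidulin over both operations.

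Leaving out a replicate turned the sign in some fits of the following, given by their range. For Hispidulin+AB against DMSO+AB the ranges were Hspa1b -0.011 to 1.71, Hsp90aa1 -0.28 to 0.53, Hsph1 -0.34 to 0.054, Dnajb1 -0.20 to 1.02, Hspb1 -0.35 to 0.12 and Cryab -0.17 to 0.10. For Hispidulin+Sham against DMSO+Sham the ranges were Hspa1a -1.24 to 1.10, Hspa1b -1.28 to 0.81, Hsp90aa1 -0.32 to 0.37, Hsph1 -0.086 to 0.30, Dnajb1 -0.18 to 0.24, Hspb1 -0.39 to 0.29 and Hspb7 -0.025 to 0.12. For the interaction the ranges were Hspa1a -0.35 to 1.99, Hspa1b -0.10 to 2.20, Hspa8 -0.11 to 0.21, Hsp90aa1 -0.31 to 0.55, Dnajb1 -0.18 to 1.04, Hspb1 -0.44 to 0.24 and Cryab -0.23 to 0.051. For hispidulin over both operations the ranges were Hspa1a -0.25 to 0.92, Hspa1b -0.29 to 0.76, Hsp90aa1 -0.13 to 0.30, Hsph1 -0.12 to 0.080, Dnajb1 -0.11 to 0.50, Hspb1 -0.27 to 0.068, Hspb6 -0.16 to 0.0074 and Cryab -0.060 to 0.078.

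Leaving out a replicate moved other values in DMSO+AB against DMSO+Sham without turning them: Hspa1b from 1.78 to 4.07, Hspa8 from 0.12 (without DMSO+AB 1) to 0.42, Hsph1 from 0.37 to 0.72, Hspb1 from 0.72 to 1.40 and Cryab from 0.43 to 0.65. Hspb6 stayed at 1.03 to 1.40 and Hspb7 at 0.65 to 0.79.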

Other observations

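Other genes followed the members closely over the 12 mice. Beside the mean of the 6 scaled HSP70, HSP90, HSP110 and HSP40 members, the highest Pearson correlations of log2(FPKM + 1) were those of Hbegf, a growth factor of the EGF family (Pearson r = 0.98, Spearman rho = 0.90), Rnf115, a ubiquitin ligase (0.97 and 0.94), Xirp1, an actin-binding protein of the intercalated disc (0.97 and 0.89), Lmcd1 (0.96 and 0.89) and Srxn1, which reduces oxidised peroxiredoxins (0.96 and 0.96). Beside the 4 small heat-shock members they were Fhl1, a LIM protein of the sarcomere (0.97 and 0.98), Tnfrsf12a, the receptor of TWEAK (0.96 and 0.95), Nrap, an actin anchoring protein (0.96 and 0.90), Hspb8 (0.96 and 0.89) and Myl12a (0.95 and 0.83). The points share the same 12 libraries and the difference between operations, so these are descriptions.

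The ratio of the inducible HSP70 genes, Hspa1b over Hspa1a, ranged from 0.396 to 0.922 over the mice. After sham surgery its mean was 0.659 ± 0.263 with DMSO and 0.488 ± 0.069 with hispidulin, and after AB 0.762 ± 0.0963 and 0.742 ± 0.117 (SD, n = 3). No test was run on it, since most of their 50-base windows occur in both genes.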
